A study of Homo sapiens with 2 samples.

Results

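The apoptosome, other caspases and caspase regulators were followed in the established human colon cancer line RKO after a hairpin against BCLAF1-L. The genes were taken as a fixed set of 8, namely CYCS, APAF1, CASP9, CASP2, CASP6, XIAP, BIRC2 and DIABLO, and every probe set whose single platform gene symbol was one of these was included. This gave 27 of the 54675 probe sets on the array, for 8 of 19775 genes. The control culture carried the hairpin sh-Luci, against luciferase, and the knockdown culture carried sh-BCLAF1-L. Both were infected with retrovirus and kept under puromycin until stable lines were obtained, so infection and selection are common to both groups. RNA from each culture was hybridised to 1 array, there was no replicate, and no test or p-value is given. A single hairpin stood for the knockdown, so lower BCLAF1 and any other effect of that hairpin cannot be told apart.

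BCLAF1 is a nuclear protein named for its interaction with proteins of the BCL2 family, which govern the mitochondrial arm of cell death. In that arm, damaged mitochondria release cytochrome c, which binds the scaffold APAF1 and assembles the apoptosome, and the apoptosome activates the initiator CASP9, which in turn cleaves effector caspases. Inhibitor of apoptosis proteins such as XIAP bind active caspases, and DIABLO, released from the same mitochondrial compartment, displaces caspases from them. Much of this control acts on proteins that already exist, through release, assembly and cleavage, and an array reads only the transcripts.

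The values are deposited probe set intensities on a linear scale. Differences are log2(intensity + 1) of the knockdown minus that of the control, and a probe set was taken as detected when its mean over both arrays was at or above the 40th percentile of the table, an intensity of 63.7. By this rule 25 of the 27 probe sets were detected. The array carries several probe sets for some genes, and 16 of the 27 here have names ending in _s_at or _x_at, which mark probes that can match more than 1 transcript. The spread between probe sets of the same gene stood in for technical error. Their differences had a pooled SD of 0.16 on the log2 scale, or 1.12-fold, over 6752 genes. This is a single value for all intensities, and it also holds real differences between the transcripts that probe sets read. Variation from culture to culture, and any shift shared by all probe sets of an array, lie outside that estimate. BCLAF1, the targeted gene, read 2505 with sh-Luci and 945 with sh-BCLAF1-L on its brightest probe set and was lower on 6 of 6 probe sets, and which of these read the L form was not tested. The bioB, bioC, bioD and cre spike-ins, which are added to every sample in equal amounts, read higher with sh-BCLAF1-L on all 18 of their probe sets (median 0.20). Ratios of 3' over 5' signal, which rise as RNA breaks down, were 3.41 and 3.81 for ACTB and 1.38 and 1.49 for GAPDH with sh-Luci and sh-BCLAF1-L. Of 8 epithelial and colon markers 5 were detected, among them EPCAM and KRT18, whereas KRT19, KRT20 and CDH1 were below detection on both arrays. Of the markers listed for other cell types, 5 of 8 for fibroblasts, 2 of 6 for blood and 2 of 4 for endothelium were detected. The detected ones were COL1A1, COL1A2, DCN, LUM, PDGFRA, CD3E, HBB, PECAM1 and VWF, and PTPRC, CDH5 and KDR were among those below detection. By the same rule 14507 of all 19775 genes were detected on their brightest probe set. Some markers lay near the detection level, among them COL1A2 (66.95 and 71.94), LUM (63.44 and 72.27) and the colon marker VIL1 (61.12 and 67.46). Detection by this rule therefore does not show that a cell type was present.

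The 8 genes differed little between the cultures. Of the 25 detected probe sets, 13 (52%) were higher and 12 lower in the knockdown, beside 54.6% higher among all 32805 detected probe sets. The median difference of the 25 was 0.020, against 0.018 for all detected probe sets. A threshold of 1.2-fold (0.26 on the log2 scale) was passed by 1 probe set in the higher direction, of XIAP, and by 1 in the lower, of CASP2. That is 4% each way, beside 7.54% of all detected probe sets at least 1.2-fold higher and 5.00% at least 1.2-fold lower. No probe set of the 8 genes reached 1.5-fold, which 0.469% of all detected probe sets reached upwards and 0.241% downwards. The SD of the 25 differences was 0.15, against 0.18 for all detected probe sets, and 32% of them exceeded the pooled within-gene SD in size, against 33.2% of all. The count for the 8 genes is thus near the background. The higher share among all probe sets past 1.2-fold was 60.1% as deposited and 47.4% after subtraction of the median difference of all probe sets, which is 0.026.

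**Figure D1:**
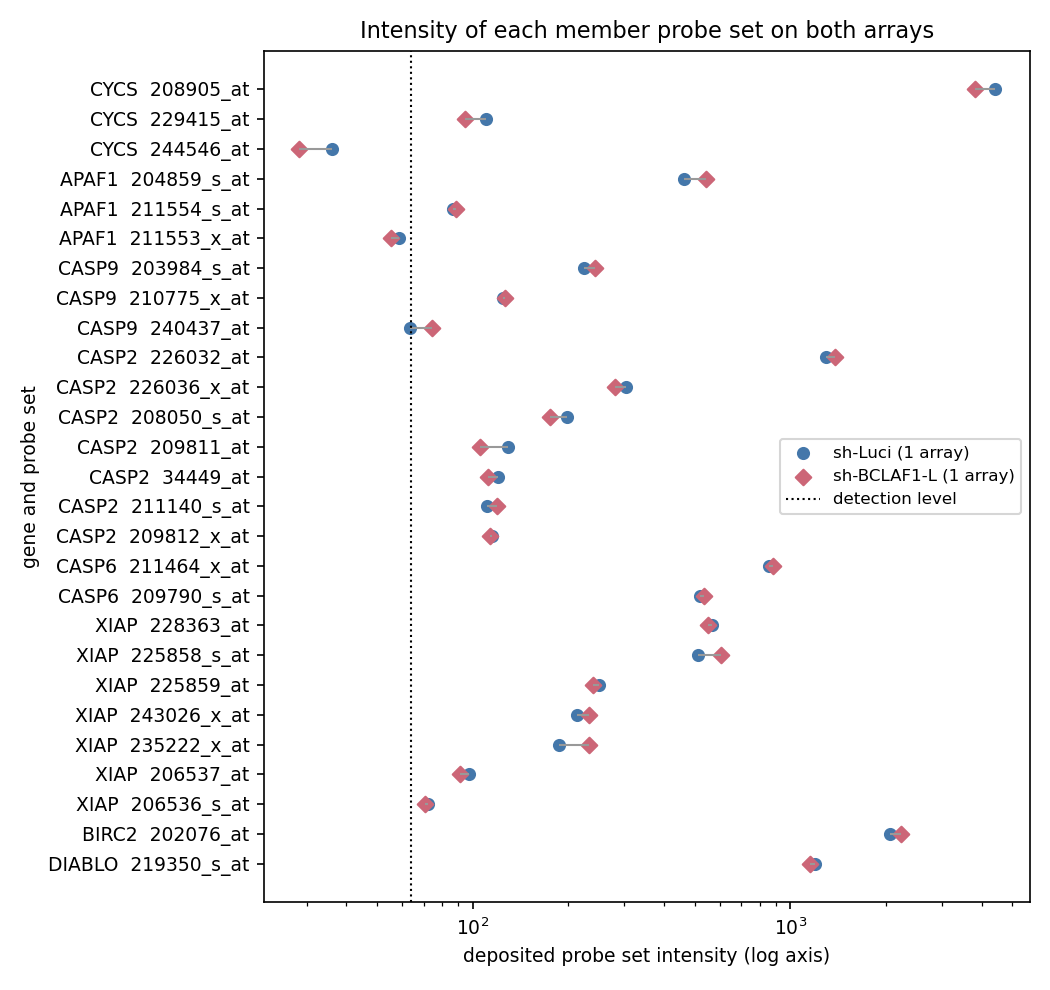
Deposited intensity (log axis) of each of the 27 probe sets on the sh-Luci array (circles) and the sh-BCLAF1-L array (diamonds), with the detection level of 63.7 as a dotted line. There are no error bars because each group is 1 array. The 3 CYCS probe sets each lie lower in the knockdown.

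**Figure D2:**
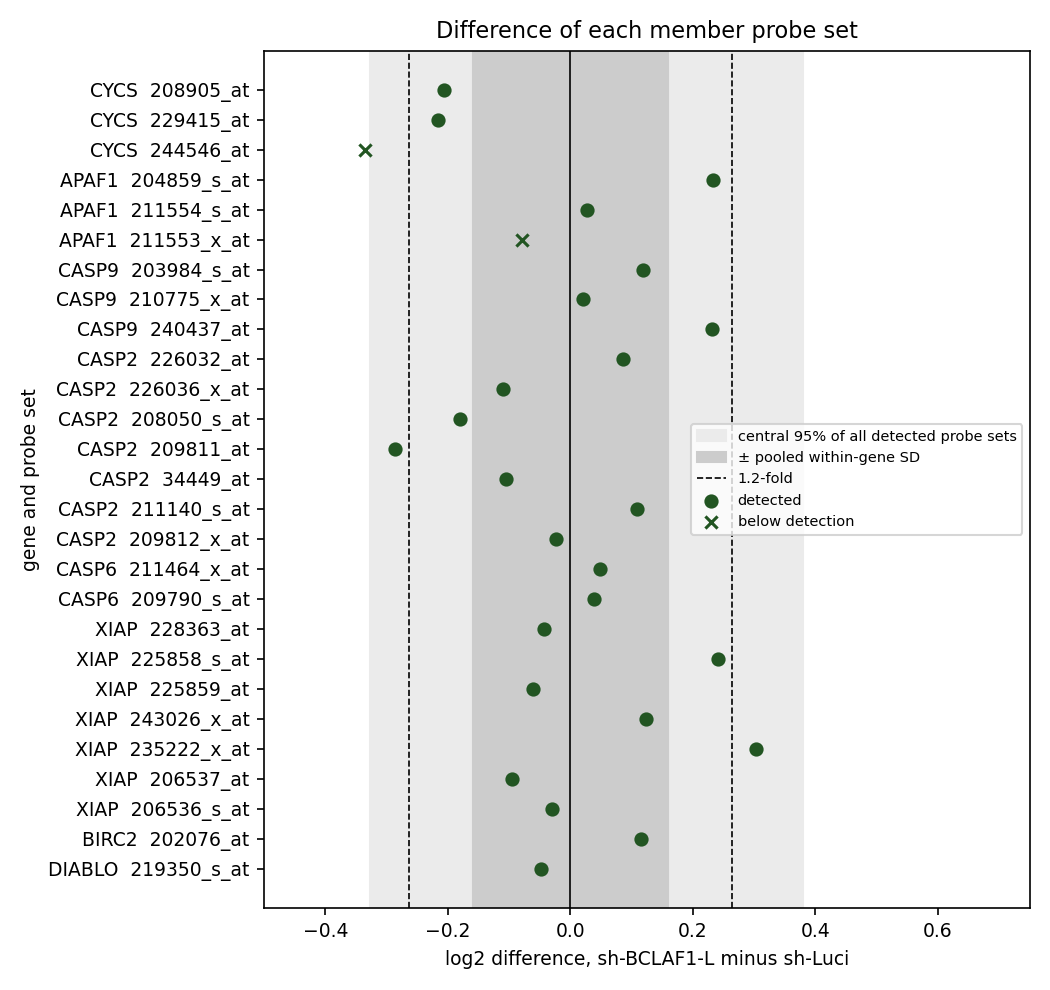
Log2 difference of each probe set, knockdown minus control, with the pooled within-gene SD of 0.16 either side of 0 (dark band), the central 95% of all detected probe sets (light band, -0.33 to 0.38) and 1.2-fold (dashed lines). Of the detected probe sets only 235222_x_at of XIAP and 209811_at of CASP2 lie outside the dashed lines, and both lie inside the light band.

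Of the 8 genes, CYCS had the lowest and APAF1 the highest difference on the brightest probe set, and their upstream sequences are shown for that reason. Both are from RefSeq on GRCh38.p14, 250 bases that end just before the annotated start, on the gene's strand. The CYCS window is chr7:25125261-25125510 on the minus strand and the APAF1 window chr12:98645040-98645289 on the plus strand. Capitals mark matches, on either strand, to a core of the nuclear respiratory factor 1 (NRF1) site (GCATGCGC), a cyclic AMP response element core (TGACG), the GC box (GGGCGG) or the CCAAT box (CCAAT).
CYCS: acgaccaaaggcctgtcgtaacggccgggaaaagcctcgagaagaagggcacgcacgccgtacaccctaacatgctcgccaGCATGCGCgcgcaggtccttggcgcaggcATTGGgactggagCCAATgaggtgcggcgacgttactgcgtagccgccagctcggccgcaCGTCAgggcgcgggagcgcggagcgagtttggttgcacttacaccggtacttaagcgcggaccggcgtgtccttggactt
APAF1: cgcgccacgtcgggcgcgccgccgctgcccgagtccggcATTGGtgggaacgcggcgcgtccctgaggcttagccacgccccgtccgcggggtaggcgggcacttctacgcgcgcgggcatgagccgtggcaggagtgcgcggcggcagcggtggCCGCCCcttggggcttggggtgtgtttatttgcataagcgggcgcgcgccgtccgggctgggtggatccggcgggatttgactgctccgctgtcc

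The CYCS window holds 1 match to the NRF1 core, 1 to the cyclic AMP core and 2 to the CCAAT box, and none to the GC box. The APAF1 window holds 1 GC box and 1 CCAAT box match and neither of the others. Over all 35116 promoter windows of this length in the RefSeq table, 2.63% hold the NRF1 core, 21.2% the cyclic AMP core, 42.6% the GC box and 32% the CCAAT box. No pair of matches overlaps in either window. A match describes the letters of the window and is not a measured binding site.

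CYCS encodes cytochrome c, which carries electrons in the respiratory chain and triggers apoptosome assembly once it leaves the mitochondrion. Its probe set 208905_at read 4405 with sh-Luci and 3817 with sh-BCLAF1-L, a difference of -0.21 that left 86.7% of the control value. Probe set 229415_at read 110.2 and 94.8, a difference of -0.22. Both detected probe sets were therefore lower by nearly the same amount, 1.15-fold and 1.16-fold, short of 1.2-fold. The third, 244546_at, read 36.1 and 28.4 and lay below detection on both arrays, with a difference of -0.34 that was also in the lower direction. With a pseudocount of 32 in place of 1 that value was -0.17.

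The spread of differences narrows as probe sets get brighter, so each probe set was also set against all detected probe sets whose mean lay within 0.5 log2 units of its own, a comparison added after the values had been seen. For 208905_at these numbered 508, with a central 95% between -0.19 and 0.20, and 2.17% of them had a lower difference. For 229415_at the central 95% was -0.35 to 0.41. Of the 25 detected probe sets, 208905_at was the only one outside such a range, which by construction leaves out 5% of all probe sets. The CYCS values are also of the size of the spike-in median, 0.20, but in the opposite direction, and any link between them was not tested. The RefSeq table lists 45 CYCS pseudogenes, and how far the probes of these sets tell them from CYCS was not tested.

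APAF1 is the scaffold that oligomerises around cytochrome c. Its probe set 204859_s_at read 462 with sh-Luci and 543 with sh-BCLAF1-L, 1.18-fold higher, a difference of 0.23. Probe set 211554_s_at read 86.8 and 88.5, a difference of 0.027. The third, 211553_x_at, was below detection at 58.6 and 55.4 and differed by -0.080. Thus only the brightest of the 3 differed by more than the pooled within-gene SD, and among probe sets of like intensity 92.4% lay below it, inside the central 95%.

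CASP9 is the initiator caspase that the apoptosome activates. Probe set 203984_s_at read 224 with sh-Luci and 243 with sh-BCLAF1-L, a difference of 0.12. Probe set 210775_x_at read 124 and 126, a difference of 0.020. The third, 240437_at, read 63.4 and 74.6, a difference of 0.23 that starts from a control value just under the detection intensity. As deposited, all 3 probe sets were higher in the knockdown, and 1 of them, the dimmest, exceeded the pooled within-gene SD. For the transcripts of the apoptosome itself, the ligand CYCS was therefore on the lower side on each of its probe sets, whereas the brightest probe sets of APAF1 and CASP9 were on the higher side. Their dimmer 211554_s_at and 210775_x_at were near 0 and turned to -0.0011 and -0.00018 after loess centring, and 210775_x_at to -0.0054 after subtraction of the median. The difference between these directions was not tested.

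**Figure D3:**
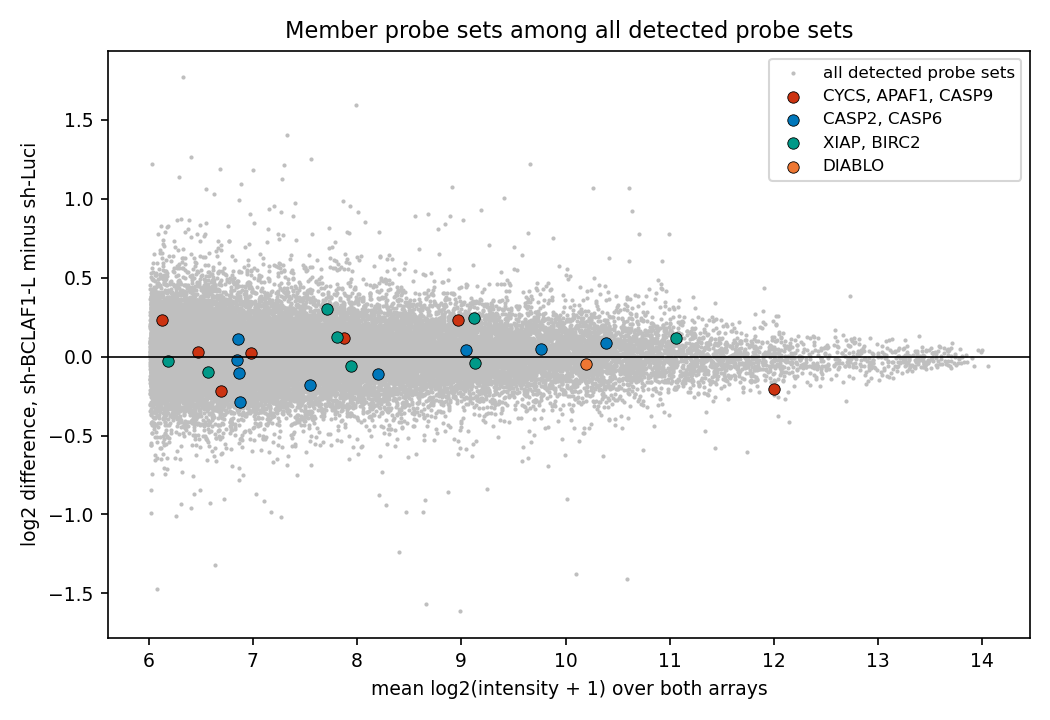
Log2 difference (knockdown minus control) against mean log2(intensity + 1) for all 32805 detected probe sets (grey) and for the 25 of the 8 genes, coloured by role. The members lie within the grey cloud, and 208905_at of CYCS, at the right, lies near the lower edge of the narrower cloud at high intensity.

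CASP2, a caspase activated on a platform of its own formed by PIDD1 and CRADD, had 7 probe sets, all detected. The brightest, 226032_at, read 1297 with sh-Luci and 1377 with sh-BCLAF1-L, a difference of 0.086. The lowest difference was that of 209811_at, which read 129 and 106, 1.22-fold lower (-0.29). The next, 208050_s_at, read 198 and 174 (-0.18). These point in different directions, and the gene's probe sets as a group did too. Of the others, 226036_x_at (304 and 281) differed by -0.11, 34449_at (120.0 and 111) by -0.11 and 209812_x_at (115 and 113) by -0.024. The remaining probe set, 211140_s_at, read 111 and 119 and differed by 0.11. In all, 5 were lower and 2 higher, and their SD was 0.14, near the pooled within-gene SD. The gene's value depends on how its probe sets are combined, at 0.086 for the brightest and -0.11 for the median. The partners of CASP2 differed by 0.065 for PIDD1 (209.7 and 219), whose other detected probe set differed by -0.12, and 0.022 for CRADD (192 and 195).

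CASP6, an effector caspase known for cleaving lamin A, gave the most uniform values among the genes with several probe sets in this group, apart from CYCS. Probe set 211464_x_at read 855 with sh-Luci and 884 with sh-BCLAF1-L, and 209790_s_at read 519.8 and 534. Their differences were 0.049 and 0.039, both well inside the pooled within-gene SD. Among the caspases of the 8 genes, no brightest probe set differed by more than 1.09-fold.

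XIAP, which binds and blocks CASP9 and some effector caspases directly, had 7 detected probe sets that spread from -0.096 to 0.30. The highest was 235222_x_at, which read 187 with sh-Luci and 231 with sh-BCLAF1-L, 1.23-fold higher. Probe set 225858_s_at read 511 and 604, a difference of 0.24, and 243026_x_at read 213 and 232, a difference of 0.12. These 3 were higher, and the names of all 3 end in _s_at or _x_at. The brightest, 228363_at, read 567 and 550.0 and differed by -0.043. Probe set 225859_at read 249.7 and 239 (-0.061), 206537_at read 97.5 and 91.1 (-0.096) and 206536_s_at read 72.3 and 70.8 (-0.030). These 4 were slightly lower, each within the pooled within-gene SD.

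The platform annotation gives 225858_s_at and 225859_at the same target accession, and they nevertheless differed from each other by 0.30 on the log2 scale. This gap between probe sets with 1 accession exceeds the brightest-probe-set difference of each of the 8 genes. The SD over the 7 XIAP probe sets was 0.16, equal to the pooled value to this precision. RefSeq lists 3 XIAP pseudogenes, and cross-matching to them was not tested.

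BIRC2, also known as cIAP1, a ubiquitin ligase that acts on signalling proteins near tumour necrosis factor receptors as well as on caspase pathways, had 1 probe set. It read 2052 with sh-Luci and 2223 with sh-BCLAF1-L, 1.08-fold higher (0.12), within a central 95% of -0.24 to 0.31 for probe sets of like intensity. DIABLO, the antagonist of XIAP and BIRC2, also had 1 probe set, which read 1193 and 1154, a difference of -0.048. Neither exceeded the pooled within-gene SD. Since both genes rest on 1 probe set, no second reading is given for them.

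Lists of other genes of the same pathway were then examined, with the brightest probe set for each gene. Of 69 listed genes, 60 had a probe set with a single symbol in the annotation used here, and the other 9 were not analysed. Of the 60, 56 were detected, of which 3 were at least 1.2-fold higher and 2 at least 1.2-fold lower. These are 5.36% and 3.57%, beside 6.86% and 4.26% of all 14507 detected genes. The median over the 56 was -0.011, against 0.019 for all detected genes. The pathway as listed therefore held no more genes past 1.2-fold, as a share, than the array as a whole.

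Among the other caspases, 6 of 8 listed had a probe set, 4 of these were detected and none passed 1.2-fold in either direction, with a median of -0.047. CASP8, the initiator at death receptors, read 753 with sh-Luci and 697 with sh-BCLAF1-L (-0.11), and its other detected probe set differed by 0.18. CASP4, an inflammatory caspase, read 703 and 698 (-0.011), with 0.13 on its other probe set. Of the other inhibitors of apoptosis, 4 of 6 had a probe set, all 4 were detected and none passed, with a median of -0.024. BIRC6, a giant ubiquitin ligase, read 901 and 877 (-0.038), and BIRC5, or survivin, which also serves in mitosis, read 874 and 868 (-0.010), with a range of -0.12 to 0.14 over its 4 probe sets.

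Of 18 listed regulators of caspases and their inhibitors, 14 had a probe set and 13 were detected, with none past 1.2-fold higher, 1 past 1.2-fold lower and a median of -0.015. The lower one was SEPTIN4, whose ARTS isoform antagonises XIAP. It read 195 with sh-Luci and 150.2 with sh-BCLAF1-L, 1.29-fold lower, and the values on the other detected probe sets were -0.29 and -0.0068. Which SEPTIN4 isoforms these probe sets read was not tested. PTMA, or prothymosin alpha, read 8409 and 7911 (-0.088), and the chaperone HSPA4 read 3129 and 3216 (0.040). XAF1, an XIAP-binding protein induced by interferon, read 169.8 and 166 and differed by -0.035, with a range of -0.24 to 0.093 over its 3 probe sets. All 8 interferon-stimulated genes listed as markers were at least 1.2-fold lower, beside 4.26% of all detected genes. Their median was -0.67 and their range -0.90 to -0.58. These markers were chosen with earlier results of these data known, so their count is not an independent result. CASP1, another interferon-responsive gene, read 225 and 219.9 (-0.036), with a range of -0.17 to -0.036 over its 3 detected probe sets.

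All 12 genes listed for mitochondrial death proteins were detected, with a median of -0.057, and 1 was past 1.2-fold higher and none lower. That gene was PARL, a protease of the inner mitochondrial membrane, at 729 with sh-Luci and 889 with sh-BCLAF1-L (0.29), and its second probe set differed by 0.28. After subtraction of the median difference of all probe sets PARL no longer passed 1.2-fold. The outer membrane channels VDAC3 and VDAC2 differed by -0.060 (4422 and 4243) and 0.018 (2614 and 2647). HTRA2, a further antagonist of inhibitor of apoptosis proteins, read 362 and 335 (-0.11).

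Of 26 caspase substrates, 25 had a probe set and 24 were detected, with a median of 0.060, and 2 were past 1.2-fold higher and 1 lower. SPTAN1, or alpha-II spectrin, read 404 with sh-Luci and 525 with sh-BCLAF1-L (0.38), but its 5 detected probe sets ranged from -0.27 to 0.38. LMNB1, or lamin B1, had 1 detected probe set at 325 and 399.9 (0.30). KRT18, an epithelial keratin, had 1 at 979 and 674, 1.45-fold lower (-0.54). That probe set is 201596_x_at, and whether it matches other transcripts was not tested. The nuclear RNA-binding protein HNRNPU read 4889 and 4493 (-0.12), and topoisomerase TOP1 read 2116 and 2139 (0.015). The nuclease DFFB, which fragments DNA once caspases have cleaved its inhibitor DFFA, differed by 0.070. DFFA differed by 0.011, with a range of -0.16 to 0.011 over its 3 probe sets. LMNA, the lamin that CASP6 cleaves, differed by 0.071, with a range of -0.050 to 0.10 over its 5 detected probe sets.

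**Figure D4:**
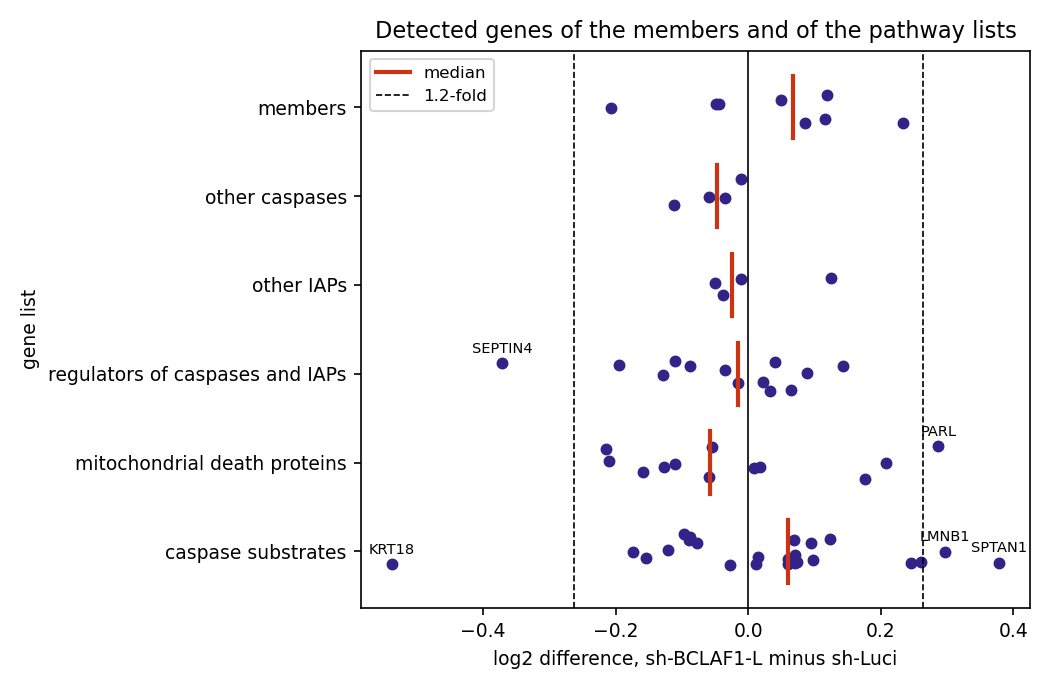
Log2 difference (knockdown minus control) on the brightest probe set of each detected gene, for the 8 members and for 5 lists of pathway genes, with the median of each list as a red bar and 1.2-fold as dashed lines. Genes past 1.2-fold are named, and the 8 members lie between -0.21 and 0.23.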

How the data were processed

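Expression was measured on 2 Affymetrix arrays, 1 sh-Luci and 1 sh-BCLAF1-L, from total RNA labelled with a 3' IVT kit, per the labels' protocols. As deposited, the table holds linear intensities, 1 for each probe set and array, and RMA is named in the submitters' processing notes. No source used here gives the program, its version or the final scaling. Background left in dim probe sets would shrink their differences. No coordinates are given for probe sets, since no source names a build for them.

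From the deposited intensities, log2(intensity + 1) differences were computed with Python 3.11.15, numpy 2.4.6 and pandas 2.3.3. Symbols came from the platform annotation, updated through Entrez identifiers (41043 of 41097 single-symbol probe sets matched RefSeq). Genes named were all members, BCLAF1, and, from each pathway list, detected genes past 1.2-fold, the 2 brightest and interferon-induced genes. PIDD1, CRADD, HTRA2, DFFA, DFFB and LMNA were named after their values were seen, for their roles beside the members, as were the genes of the closing observations. Members and lists were chosen with earlier results of these data known. Some listed genes were not analysed here. The calculation was run on simulated data with independent noise for each probe set, which checks the arithmetic and not the results above. Alternatives were a pseudocount of 32, median or loess centring (span 0.3), no filter, a filter at the 60th percentile, removal of _s_at and _x_at probe sets, 1.5-fold and the median over probe sets.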

Additional observations from a re-analysis of the deposited data

How the results depend on the processing

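No paired analysis was possible because the design has 1 array for each hairpin, which also leaves no replicate to omit. Over the settings tried, CYCS stayed between -0.23 and -0.20, and XIAP and DIABLO stayed below 0. APAF1, CASP9, CASP6 and BIRC2 stayed above 0 at the gene level. Most of these settings reuse the brightest probe set of a gene, and BIRC2 and DIABLO have only 1. The steadiness of these values therefore says little about other probe sets, and for XIAP 3 of the 7 were higher as deposited. With the median over probe sets APAF1 was 0.027 and CASP2 -0.11, each a move of more than the pooled within-gene SD. The APAF1 median includes 211553_x_at, which is below detection, and over its detected probe sets the median was 0.13, a smaller move. The count of member probe sets past 1.2-fold lower was 0 with a pseudocount of 32 and 2 with no filter, where 244546_at of CYCS joins. The count higher was 0 without _s_at and _x_at probe sets, and at 1.5-fold both counts were 0. APAF1, CASP6 and DIABLO have no probe set outside the _s_at and _x_at classes, so that setting gave no value for them. Of 81 recomputed member probe set differences, 80 moved by less than the pooled within-gene SD and 3 changed sign, namely 210775_x_at of CASP9 with median and loess centring and 211554_s_at of APAF1 with loess. The median over the detected member probe sets, 0.020, turned to -0.0054 with median centring, -0.0011 with loess, -0.024 with no filter and -0.078 without _s_at and _x_at probe sets. The number of arrays limits the precision, and a difference under 1.12-fold lies within the pooled SD between probe sets of a gene.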

Other observations

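Cytochrome c has partners in synthesis and electron transfer whose values were looked at after those of CYCS. HCCS, which attaches haem to cytochrome c, read 627 with sh-Luci and 539.9 with sh-BCLAF1-L (-0.22) on its brightest probe set, and its second probe set differed by 0.018. CYC1, the cytochrome c1 subunit that passes electrons to cytochrome c, had 1 probe set at 1404 and 1214 (-0.21). Of all detected genes, 7.85% had a lower difference than CYCS on the brightest probe set. The list of mitochondrial death proteins that holds HCCS and CYC1 had a median of -0.057. Likeness between these genes and CYCS was not tested, since 2 arrays give no measure of it. The proteins AIFM1 and ENDOG, which leave mitochondria in cell death without acting on caspases, were on the higher side, at 0.18 (565 and 638) and 0.21 (181 and 209), each with 1 detected probe set.

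Probe sets of a few pathway genes stood far apart from each other. VDAC3 differed by -0.060 and -0.063 on its bright probe sets and by 0.51 on 208844_at (158 and 225). AREL1, a ubiquitin ligase that acts on antagonists of inhibitor of apoptosis proteins, differed by -0.19 on its brightest probe set and by 0.48 on 1554989_at (97.0 and 136). NAIP, an inhibitor family member that senses bacterial proteins, differed by -0.050 and 0.38 on its detected probe sets. HNRNPU was lower on each of its 5 detected probe sets, from -0.47 to -0.070.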
